A study of Mus musculus with 6 samples.

Results

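Iron handling was described through 10 genes: transferrin (Trf) and its receptor (Tfrc), lipocalin 2 (Lcn2), the ferritin chains (Fth1 and Ftl1), the transporters Slc40a1 and Slc11a2, haem oxygenase 1 (Hmox1), and the iron regulatory proteins Aco1 and Ireb2. The list was chosen by role, with the measured fold changes of these libraries between WT and mPGES-1 KO in view. The genes were taken by symbol from the count table, and all 10 were present among its 18197 symbols and had enough counts to be tested among 16543. The libraries come from cancer-associated fibroblasts, the stromal cells that make and remodel tumour matrix, sorted by FACS from mammary tumours that the polyoma middle T oncogene (PyMT) drives in C57BL/6 mice. Tumours were taken at 16 to 20 weeks, and all 6 libraries share the oncogene, the strain and the sort. The groups were WT and mPGES-1 KO by their labels, with 3 libraries each. By its label the KO lacks microsomal prostaglandin E synthase-1, the enzyme that makes prostaglandin E2 (PGE2), on which the series title centres. The sources used here do not give the promoter that drives the oncogene, the cells that carry the deletion or the markers used for sorting. The labels also do not say that the libraries of a group came from separate mice, so a p-value here reflects library-to-library spread, which could be technical alone.

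Transferrin carries ferric iron in the blood, and its receptor takes the complex into the cell, where Slc11a2 (DMT1) moves the iron out of the endosome. Ferritin, a shell of heavy and light chains, stores what is not used, Slc40a1 (ferroportin) exports it, and haem oxygenase 1 frees iron from haem. Lipocalin 2 binds the siderophores with which bacteria collect iron and is made by epithelium and neutrophils in inflammation. The iron regulatory proteins bind stem-loops called iron-responsive elements when iron is scarce: in a 5′ UTR this blocks translation, and in a 3′ UTR it keeps the mRNA from decay. RNA counts can show the second effect and not the first.

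The stem-loops are shown because they separate the genes whose mRNA level the regulatory proteins are known to set from those whose translation they set. A search of GENCODE M21 transcripts (GRCm38) for a bulged C, any 5 bases and the loop CAGTG followed by any base (CNNNNNCAGTGN, read on the transcript strand) was joined to a test that the 5 bases before the loop pair with the 5 after it, G with T pairs allowed. The pattern alone lay in the main transcript of 64.3% of 21864 protein-coding genes, and the pattern with all 5 pairs in 1.20%. It lay in the 5′ UTR of 0.0960% and in the 3′ UTR of 0.499%. Of the 10 genes, 4 held such a site: Fth1, Ftl1 and Slc40a1 in the 5′ UTR, and Tfrc at 4 places in the 3′ UTR. Slc11a2 held none with 5 pairs, but another of its transcripts held a 3′ UTR match with 4. Another transcript of Lcn2 also held a match with 4 pairs, in its coding part, which is not printed. The share of all genes with a match of 4 pairs was not counted. A match to these letters is a description and not a measured binding site. In the sites below, 5′ to 3′ on the transcript strand, capitals mark the bulged C and the CAGTG of the loop.
Fth1, 5′ UTR, plus strand, chr19:9982733-9982759: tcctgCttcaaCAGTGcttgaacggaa
Ftl1, 5′ UTR, minus strand, chr7:45459780-45459806: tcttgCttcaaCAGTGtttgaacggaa
Slc40a1, 5′ UTR, minus strand, chr1:45925466-45925492: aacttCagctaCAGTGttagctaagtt
Tfrc, 3′ UTR, plus strand, chr16:32631220-32631246: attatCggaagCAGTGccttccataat
Tfrc, 3′ UTR, plus strand, chr16:32631599-32631625: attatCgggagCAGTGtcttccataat
Tfrc, 3′ UTR, plus strand, chr16:32631664-32631690: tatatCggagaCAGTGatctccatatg
Tfrc, 3′ UTR, plus strand, chr16:32631711-32631737: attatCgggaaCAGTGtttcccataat
Slc11a2, 3′ UTR, minus strand, chr15:100395154-100395180: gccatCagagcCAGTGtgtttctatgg

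Before the iron genes, 3 measurements on the libraries bear on every direction below. Total counts ran from 23013498 to 43648450 per library. Ptges, the gene of mPGES-1 itself, stood at 26.3 ± 6.49 CPM (read counts scaled to library size) under the WT label and, in the opposite direction to a loss, at 150.3 ± 31.1 CPM under the mPGES-1 KO label (SD, n = 3 each). The counts are totals per gene and cannot show a deleted part, so Ptges checks neither the deletion nor which group carries it, and directions are drawn from the labels. Of 10 fibroblast markers listed, Pdpn had no row in the count table. The 9 present were all detected in each library, with a summed level of 9048 to 26735 CPM in WT and 6239 to 17527 CPM in mPGES-1 KO. In 2 of them, Thy1 and Col1a1, every mPGES-1 KO library lay below every WT library, as in 15.7% of all tested genes. Of the 9, only Thy1 passed as lower. Markers of other cells were present too: the 11 luminal epithelial markers summed to 6798 to 13003 CPM in WT and 34630.2 to 51203 CPM in mPGES-1 KO, and the 8 pericyte markers to 2740 to 6464 CPM and 124 to 284 CPM. In bulk samples, fewer cells of a type and less RNA per cell cannot be told apart.

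Trf, Tfrc and Lcn2 were higher under the mPGES-1 KO label, by 5.33-fold, 7.12-fold and 5.16-fold in mean CPM, and were the 3 of the 10 genes that passed an adjusted p of 0.05 in the fit over all genes. In that fit, edgeR's quasi-likelihood test, 2.76% of all tested genes passed in either direction, 1.2% passed as higher and 1.56% as lower. The ferritin chains, both transporters and both iron regulatory proteins did not pass, nor did Hmox1 with a 3.93-fold higher mean. In 5 of the 10 genes (Trf, Tfrc, Lcn2, Hmox1 and Ireb2) every library labelled mPGES-1 KO lay above every library labelled WT, a separation seen in 12.2% of all tested genes in that direction, 15.7% in the other and 27.9% in either. The median log2 fold change was 0.79 over the 10 genes and -0.04 over all tested genes. The 10 genes were listed with results of this contrast known. The differences, the counts that passed and the shares beside them are thus a description and no test of the list, for which no p-value is given. The count of 3 was 0 when mPGES-1 KO replicate 2, mPGES-1 KO replicate 3 or WT replicate 2 was left out, where 4, 5 and 4 of the 10 had an unadjusted p under 0.05 in edgeR, beside 14.5%, 16.7% and 13.6% of all genes in those fits. It was 1, Trf, without mPGES-1 KO replicate 1 or without WT replicate 3, where 0.903% and 0.858% of all genes passed. DESeq2 and limma-voom, run on all 6 libraries, each counted 4 by adding Hmox1, in fits where 13.4% and 11.9% of all genes passed.

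**Figure D1:**
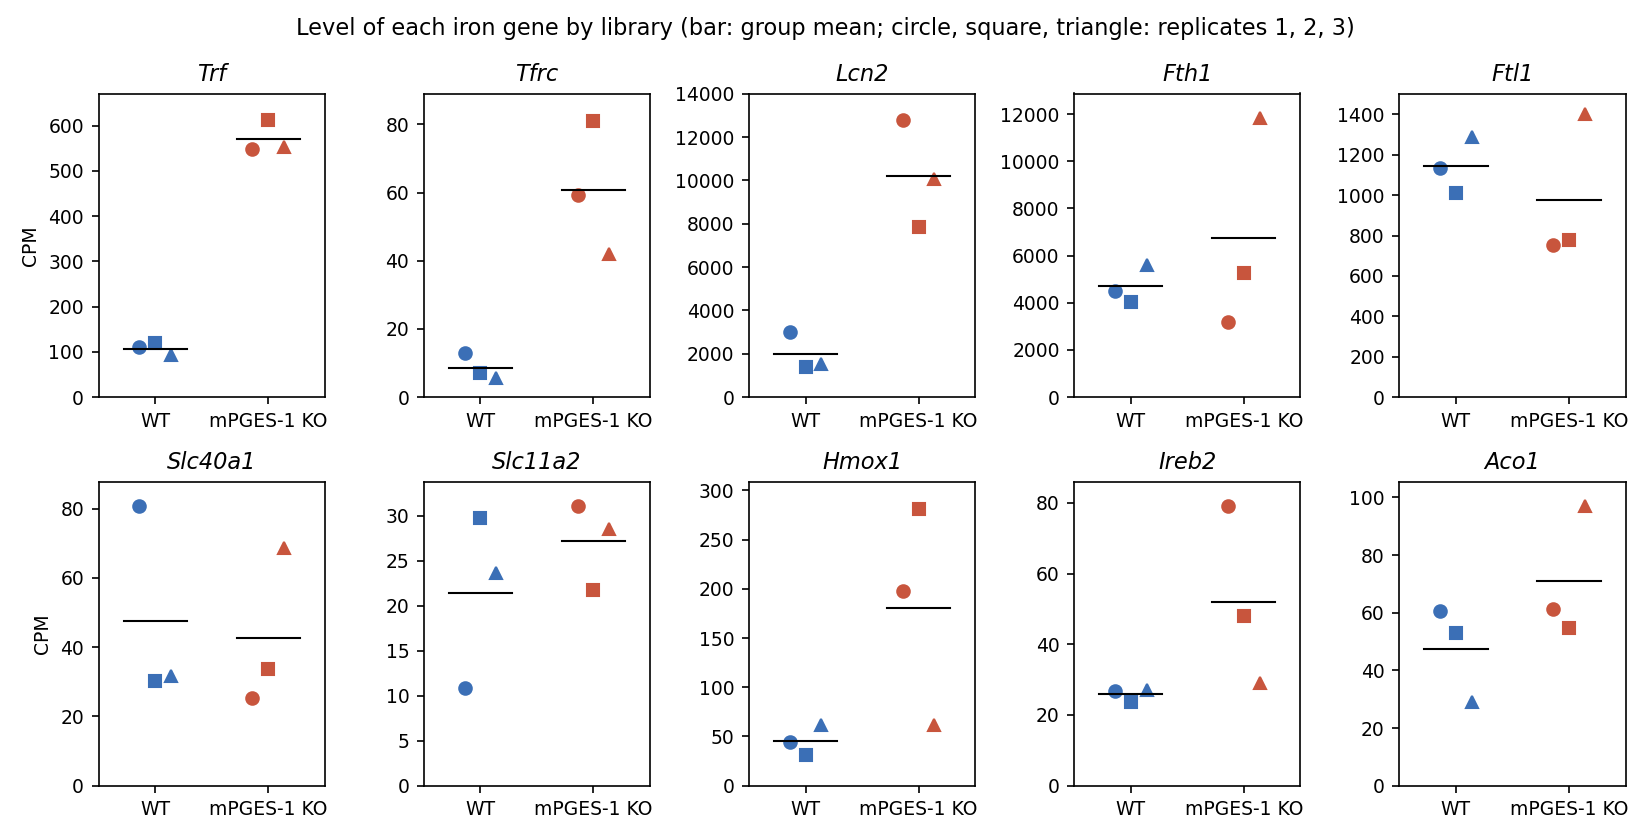
Level of each of the 10 iron genes in CPM (vertical axes, each from 0) in the 3 libraries labelled WT (blue) and the 3 labelled mPGES-1 KO (red); points are libraries and bars group means. Trf, Tfrc and Lcn2 sit well apart between the groups, while Fth1, Ftl1, Slc40a1, Slc11a2 and Aco1 overlap.

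Trf was the most even of the 10 genes. It was at 110.2, 119 and 92.4 CPM in WT replicates 1 to 3, and mPGES-1 KO replicates 1 to 3 stood at 547, 613 and 553 CPM. The groups did not overlap, and within each group the libraries lay close together. Group means were 107 ± 13.5 and 571 ± 36.1 CPM (SD, n = 3 in each group), for a log2 fold change of 2.41 ± 0.25 (SE). Its within-group SD was 0.15 on the log2 CPM scale, lower than that of all but 4.3% of the 1000 genes nearest to it in mean level. Trf is on chromosome 9 (103204001 to 103230444, minus strand) in GENCODE M21 (GRCm38). There 63.5% of its exonic bases are shared with Gm20425, an annotated gene on the same strand, so its value is uncertain.

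Tfrc, which imports the transferrin complex, had the widest relative difference and the lowest WT level per kilobase. It was at 13.0, 7.02 and 5.57 CPM in WT replicates 1 to 3, and mPGES-1 KO replicates 1 to 3 stood at 59.4, 81.1 and 42.0 CPM. The lowest mPGES-1 KO library was thus above the highest WT library. The means were 8.54 ± 3.95 and 60.8 ± 19.6 CPM, a log2 fold change of 2.83 ± 0.47 (SE), which ran from 2.60 to 3.30 over 13 alternative settings. The raw counts behind the lowest library, WT replicate 3, were 203 reads. The gene spans chromosome 16 from 32608920 to 32632794 on the plus strand and shares no exonic base with another annotated gene.

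Lcn2 was among the most abundant transcripts of the sorted cells. It was at 3021, 1409 and 1519 CPM in WT replicates 1 to 3, and mPGES-1 KO replicates 1 to 3 stood at 12776, 7842 and 10065 CPM. Every mPGES-1 KO library was above every WT library, and WT replicate 1 was the highest of its group. By raw counts it ranked 23, 54 and 53 among all genes in WT replicates 1 to 3 and 2, 3 and 6 in mPGES-1 KO replicates 1 to 3, where it took 1.25%, 0.813% and 0.954% of all counts. The means were 1983 ± 901 and 10228 ± 2471 CPM, a log2 fold change of 2.37 ± 0.42 (SE). Lcn2 is on chromosome 2 (32384633 to 32388252, minus strand) and shares no exonic base with another annotated gene.

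Lcn2 and Trf are also made by mammary epithelium, and like its luminal markers they were higher under the mPGES-1 KO label. All 11 luminal markers were higher in every mPGES-1 KO library than in any WT library, and 5 of them passed (Epcam, Krt8, Krt18, Cdh1 and Elf3). Set against the summed level of the 11 markers in the same library, Lcn2 equalled 23.2%, 20.7% and 17.7% in WT replicates 1 to 3 and 25.0%, 22.4% and 29.1% in mPGES-1 KO replicates 1 to 3. On that scale the groups overlapped, with means of 20.6 ± 2.76% and 25.5 ± 3.34%. Trf equalled 0.847%, 1.75% and 1.08% of the luminal sum in WT replicates 1 to 3 and 1.07%, 1.75% and 1.60% in mPGES-1 KO replicates 1 to 3, which overlapped as well. Within the groups the order of Trf differed from that of the sum. In WT Trf was highest in replicate 2 (119 CPM), where the sum was lowest (6798 CPM). In mPGES-1 KO it was lowest in replicate 1 (547 CPM), where the sum was highest (51203 CPM). Lcn2, like the sum, was highest in replicate 1 of each group. The markers differed among themselves. In mPGES-1 KO, though not in WT, Cdh1 (179, 235 and 195 CPM in replicates 1 to 3) and Elf3 (128, 313 and 216 CPM) were ordered as Trf. Krt8 (3482, 2513 and 2268 CPM) was highest in replicate 1. With 3 libraries per group, these orders were not tested. Tfrc equalled 0.0650 to 0.103% of the luminal sum in WT and 0.116 to 0.232% in mPGES-1 KO, so that its groups stayed apart. Hmox1 equalled 0.343 to 0.718% in WT and 0.179 to 0.805% in mPGES-1 KO and overlapped. The milk protein gene Csn3 made up 47.7 to 65.3% of the sum. Without it, a setting added after the data were seen, Lcn2 equalled 42.7 to 66.9% in WT and 42.9 to 67.3% in mPGES-1 KO, and Trf 2.44 to 3.60% and 2.88 to 3.49%. Tfrc then equalled 0.159 to 0.289% and 0.265 to 0.443%, and its groups overlapped. The luminal sum itself was 4.26-fold higher in mean under the mPGES-1 KO label. Genes of a similar fold change thus tend to overlap relative to it, whatever cell makes them. The share of all tested genes that overlap on that scale was not computed. The part of the epithelial markers in the Lcn2, Trf and Tfrc differences was not tested.

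**Figure D2:**
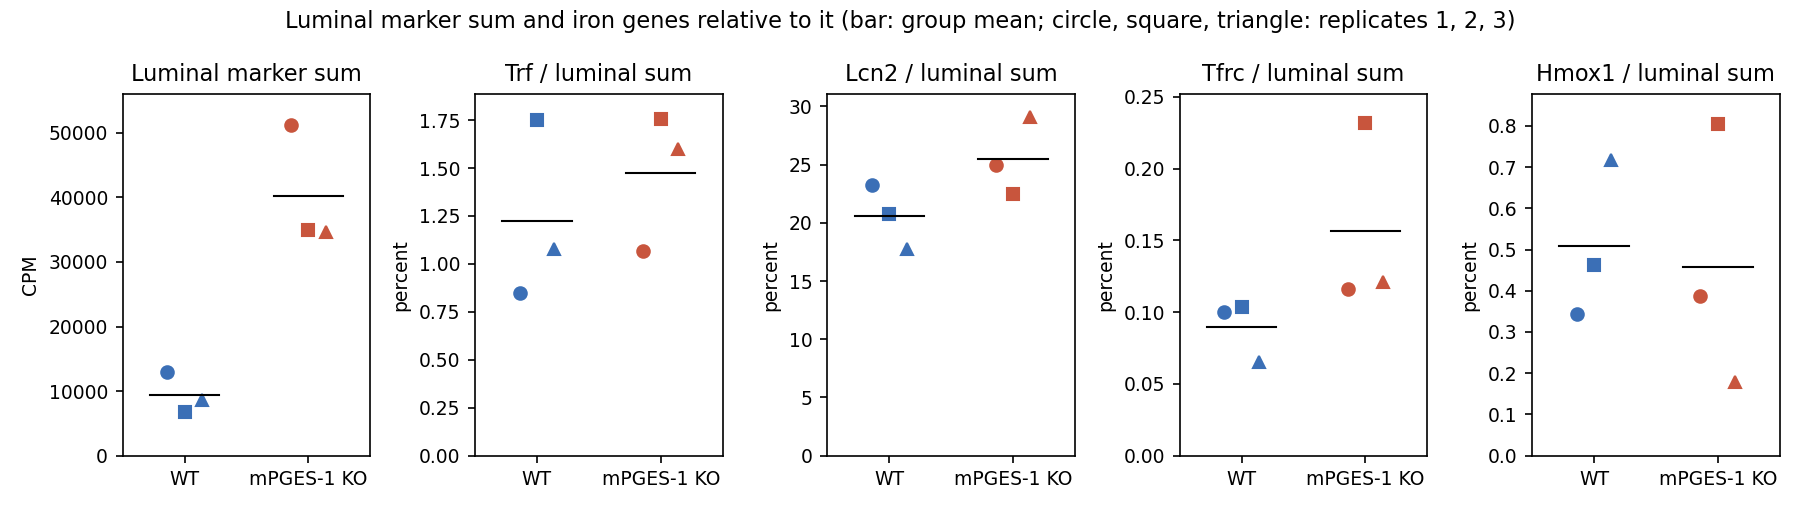
Summed CPM of 11 luminal epithelial markers (left panel) and 4 iron genes as a percentage of that sum, in the libraries labelled WT (blue) and mPGES-1 KO (red); points are libraries, bars group means, and all axes start at 0. The marker sums are apart (6798 to 13003 CPM against 34630.2 to 51203 CPM), whereas Lcn2, Trf and Hmox1 relative to the sum overlap between the groups.

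Neutrophils are the other classical source of lipocalin 2. Of 8 neutrophil markers, 3 were measured (S100a8, S100a9 and Csf3r), and they summed to 8.40 to 26.5 CPM in WT and 5.83 to 64.3 CPM in mPGES-1 KO, nearly all of it S100a8. S100a9 was at 0 in 3 of the 6 libraries and at no more than 3.17 CPM in the others, and Csf3r was under 1 CPM in all 6. Ly6g, Cxcr2, Retnlg, Ngp and Camp were sought but had no row in the count table. The part of neutrophil RNA in the Lcn2 values was not tested.

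The ferritin chains were abundant in all 6 libraries, and neither passed. Fth1, the heavy chain with the ferroxidase centre, was at 4512, 4023 and 5610.0 CPM in WT replicates 1 to 3, and mPGES-1 KO replicates 1 to 3 stood at 3166, 5261 and 11828 CPM. The mPGES-1 KO group thus held both the lowest and the highest library. Its means were 4715 ± 813 and 6752 ± 4519 CPM, with a log2 fold change of 0.52 ± 0.49 (SE) that became -0.16 without mPGES-1 KO replicate 3. Ftl1, the light chain that promotes mineral formation, was at 1135, 1012 and 1287 CPM in WT replicates 1 to 3, and mPGES-1 KO replicates 1 to 3 stood at 754, 779 and 1399.6 CPM. These groups overlapped only through mPGES-1 KO replicate 3, the library with the highest levels of both chains and of Aco1 and the highest sum of 8 macrophage markers (2339 CPM). The part of macrophage RNA was not tested. For Ftl1 the log2 fold change was -0.23 ± 0.33 (SE). Fth1 is on chromosome 19 (9980598 to 9985098, plus strand), and Ftl1 on chromosome 7 (45457944 to 45459884, minus strand).

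The ratio of the chains varied more among the mPGES-1 KO libraries. Per kilobase of the main transcript, Fth1 over Ftl1 was 4.14, 4.14 and 4.54 in WT replicates 1 to 3 and 4.38, 7.04 and 8.81 in mPGES-1 KO replicates 1 to 3. The WT libraries lay within a narrow range, mPGES-1 KO replicate 1 fell inside it, and replicates 2 and 3 lay above it. Both genes have processed pseudogenes among which reads may be divided, so the values are uncertain. The 3 ferritin pseudogene rows of the table (Ftl1-ps1, Fth-ps2 and Ftl1-ps2) held at most 44 reads each per library, and adding them moved the group means from 4.28 to 4.27 and from 6.74 to 6.73. For Ftl1, 26.5% of exonic bases overlap Gm10252 on the opposite strand, which these unstranded reads cannot separate, and 8.1% are shared with Gm22133 on the same strand.

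Tfrc relative to Fth1 set the import receptor against the storage chain. Per kilobase, Tfrc was 0.0548%, 0.0331% and 0.0189% of Fth1 in WT replicates 1 to 3 and 0.356%, 0.293% and 0.0675% in mPGES-1 KO replicates 1 to 3. All mPGES-1 KO libraries were above all WT libraries, but mPGES-1 KO replicate 3 lay far nearer to WT replicate 1 than to the others of its group. The same library had the highest Fth1 level and the lowest Tfrc level of the mPGES-1 KO group. Trf over Tfrc, carrier over receptor, was 16.1 to 32.2 in WT and 14.4 to 25.1 in mPGES-1 KO and overlapped.

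**Figure D3:**
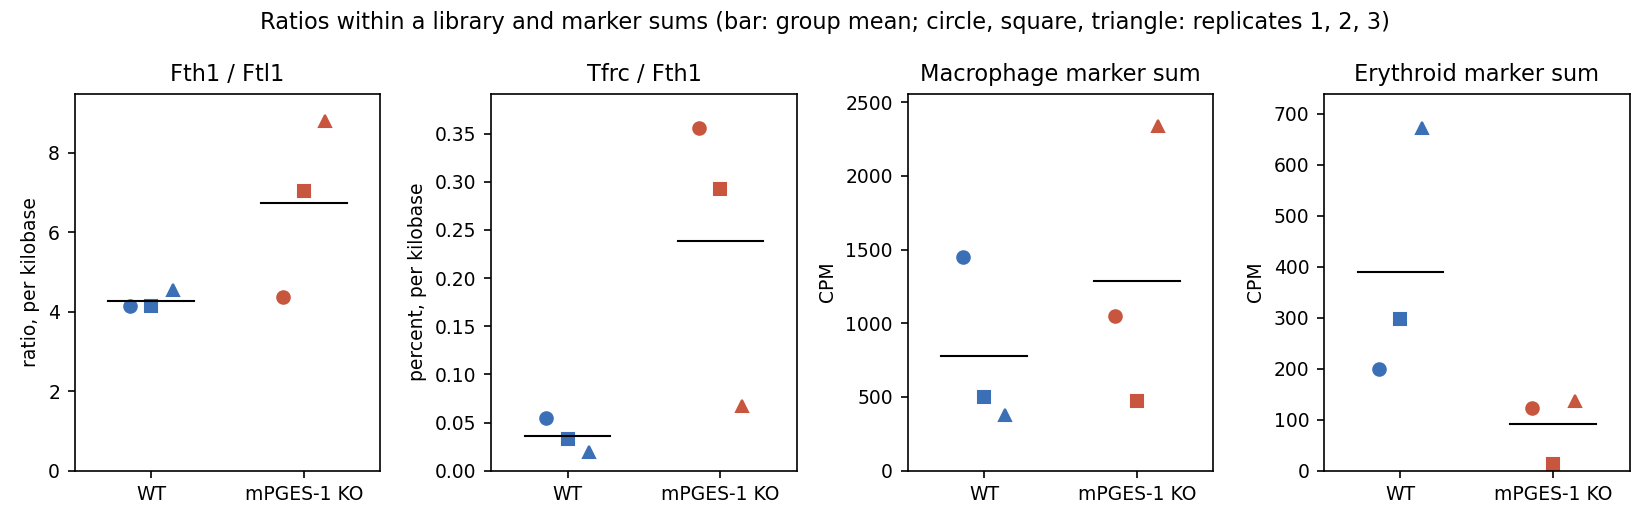
Fth1 over Ftl1 as a ratio and Tfrc over Fth1 in percent, both per kilobase of main transcript, beside the summed CPM of 8 macrophage and 5 erythroid markers; points are libraries labelled WT (blue) or mPGES-1 KO (red), and bars are group means. The Fth1 to Ftl1 ratio is 4.14 to 4.54 in WT and 4.38 to 8.81 in mPGES-1 KO, and the macrophage sum is highest in mPGES-1 KO replicate 3 and WT replicate 1.

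Both transporters overlapped between the groups, and neither passed. Slc40a1, the iron exporter, was at 80.8, 30.3 and 31.6 CPM in WT replicates 1 to 3, and mPGES-1 KO replicates 1 to 3 stood at 25.5, 33.6 and 68.6 CPM. One library of each group stood high, WT replicate 1 and mPGES-1 KO replicate 3, and the other 4 lay close together. Those 2 libraries also had the highest sums of the 8 macrophage markers, 1451 CPM in WT replicate 1 and 2339 CPM in mPGES-1 KO replicate 3, against at most 1048 CPM in the others. Taken singly, 6 of the 8 were highest in mPGES-1 KO replicate 3, Csf1r in WT replicate 1 and Adgre1 in mPGES-1 KO replicate 1. The library with the next highest macrophage sum, mPGES-1 KO replicate 1 (1048 CPM), had the lowest Slc40a1 level, and the part of macrophage RNA in the Slc40a1 values was not tested. The log2 fold change of -0.16 ± 0.53 (SE) turned positive when WT replicate 1 (0.48), mPGES-1 KO replicate 1 (0.11) or mPGES-1 KO replicate 2 (0.02) was left out. Slc11a2, the endosomal importer, was at 10.8, 29.8 and 23.6 CPM in WT replicates 1 to 3, and mPGES-1 KO replicates 1 to 3 stood at 31.1, 21.7 and 28.6 CPM. These overlapped, with a log2 fold change of 0.34 ± 0.46 (SE). The counts do not separate its transcripts with and without the 3′ UTR stem-loop match, and 6.3% of its exonic bases overlap Gm5475 on the opposite strand. Slc40a1 is on chromosome 1 (45908068 to 45926523, minus strand), and Slc11a2 on chromosome 15 (100387898 to 100425072, minus strand).

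Hmox1, which breaks haem down to biliverdin, carbon monoxide and iron, was the least even of the 10 genes. It was at 44.6, 31.4 and 61.5 CPM in WT replicates 1 to 3, and mPGES-1 KO replicates 1 to 3 stood at 198, 281 and 61.8 CPM. The groups did not overlap in CPM, but mPGES-1 KO replicate 3 was at the level of WT replicate 3. As a share of total counts, mPGES-1 KO replicate 3 (0.00586%) lay below WT replicate 3 (0.00594%), so the groups overlapped. The means were 45.8 ± 15.1 and 180.3 ± 111 CPM, and the log2 fold change of 1.98 ± 0.55 (SE) was lowest at 1.55 when mPGES-1 KO replicate 2 was left out and highest at 2.39 when replicate 3 was. Its within-group SD of 0.88 on the log2 scale was above that of 94.2% of the 1000 genes nearest in mean level. Hmox1 is on chromosome 8 (75093621 to 75100589, plus strand). Erythroid markers, which reflect red cell RNA in the sort, summed over 5 genes to 199 to 671 CPM in WT and 13.2 to 136 CPM in mPGES-1 KO. None of the 5 passed. In 4 of them every mPGES-1 KO library lay below every WT library, as in 15.7% of all tested genes. The part of red cell RNA in the Hmox1 values was not tested.

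Neither iron regulatory protein passed. Ireb2 (IRP2), which is degraded when iron is plentiful, was at 26.8, 23.6 and 27.0 CPM in WT replicates 1 to 3, and mPGES-1 KO replicates 1 to 3 stood at 79.0, 47.9 and 29.1 CPM. The WT libraries were nearly level, and the mPGES-1 KO libraries ranged from just above them upward, with a log2 fold change of 1.01 ± 0.41 (SE). Aco1 (IRP1), which is the cytosolic aconitase when it carries an iron-sulphur cluster, was at 60.5, 53.0 and 29.0 CPM in WT replicates 1 to 3, and mPGES-1 KO replicates 1 to 3 stood at 61.2, 54.6 and 97.0 CPM. These overlapped, with a log2 fold change of 0.58 ± 0.38 (SE). Ireb2 is on chromosome 9 (54863789 to 54912530, plus strand), and Aco1 on chromosome 4 (40143081 to 40198338, plus strand).

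As CPM per kilobase of the main transcript (RPKM), the order of levels was led by storage and lipocalin. In WT it ran Fth1 (5075 ± 875 RPKM), Lcn2 (2168 ± 984), Ftl1 (1182 ± 142), Trf (41.7 ± 5.26), Hmox1 (29.2 ± 9.64), Slc40a1 (14.1 ± 8.54), Aco1 (12.4 ± 4.29), Slc11a2 (7.08 ± 3.19), Ireb2 (4.47 ± 0.333) and Tfrc (1.75 ± 0.808). From Trf down to Ireb2, each neighbouring pair in that order overlapped between libraries, and the first 3 steps and the last did not. In mPGES-1 KO, Lcn2 (11178 ± 2701 RPKM) and Fth1 (7268 ± 4865) led and overlapped, followed by Ftl1 (1009.8 ± 378), Trf (222 ± 14.1) and Hmox1 (115 ± 70.6). The 5 others lay between 8.97 and 18.5 RPKM with neighbours overlapping, and Tfrc (12.4 ± 4.00) was the eighth of the 10.

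The pattern most like that of Lcn2 over the 6 libraries was sought among 4050 genes averaging 50 CPM or more, by the root-mean-square (RMS) difference of log2 CPM after each gene was centred. The 5 nearest genes were BC006965 (RMS difference 0.17), the fatty acyl-CoA reductase gene Far1 (0.23), the potassium channel subunit gene Kcne3 (0.26), Csn3 (0.27) and Ptges (0.27). Nearest to Trf were Slc9a3r1 (0.16), a scaffold that binds ezrin, the transcription factor gene Ets2 (0.19), the ERBB2-binding Erbin (0.25), ezrin itself (Ezr, 0.25) and the proton pump subunit gene Atp6v1a (0.27). All 10 had a log2 fold change between 1.90 and 2.70, so the likeness includes the same separation of the 2 groups.

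Around the 10 genes, a list of 72 symbols by role covered other iron and haem genes, and 63 of them were tested. Of these, 0 passed as higher and 1 as lower in edgeR's test, with 62 not passing, and their median log2 fold change was 0.08 against -0.04 over all tested genes. At an unadjusted p under 0.05 in edgeR, 9 were higher and 6 lower, 15 of 63 beside 19.1% of all tested genes. At an adjusted p of 0.05, DESeq2 gave 8 higher and 4 lower, beside 13.4% of all genes with an adjusted p in that fit. With limma-voom 6 were higher and 4 lower, beside 11.9% of all genes. The gene that passed was Slc22a17, a receptor for lipocalin 2. It was at 54.4, 111 and 89.7 CPM in WT replicates 1 to 3, and mPGES-1 KO replicates 1 to 3 stood at 23.4, 22.5 and 29.9 CPM. The groups did not overlap, and the direction was opposite to that of Lcn2. It fell from 85.2 ± 28.8 to 25.3 ± 4.04 CPM, or by 1.75 ± 0.35 (SE) on the log2 scale, with an adjusted p of 0.0462 in edgeR's quasi-likelihood test. Over 13 alternatives its adjusted p ran from 6.65e-04 to 0.202, and 5 of them kept the call. The call was lost on leaving out any of mPGES-1 KO replicates 1, 2 and 3, WT replicate 2 or WT replicate 3. It was also lost with DESeq2 size factors in the edgeR test (adjusted p = 0.05004) and with no filter on low counts (0.0516). Slc22a17 is on chromosome 14 (54906304 to 54913132, minus strand). The pericyte marker sum was 21.2-fold lower in the same libraries, and its part in the Slc22a17 difference was not tested.

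**Figure D4:**
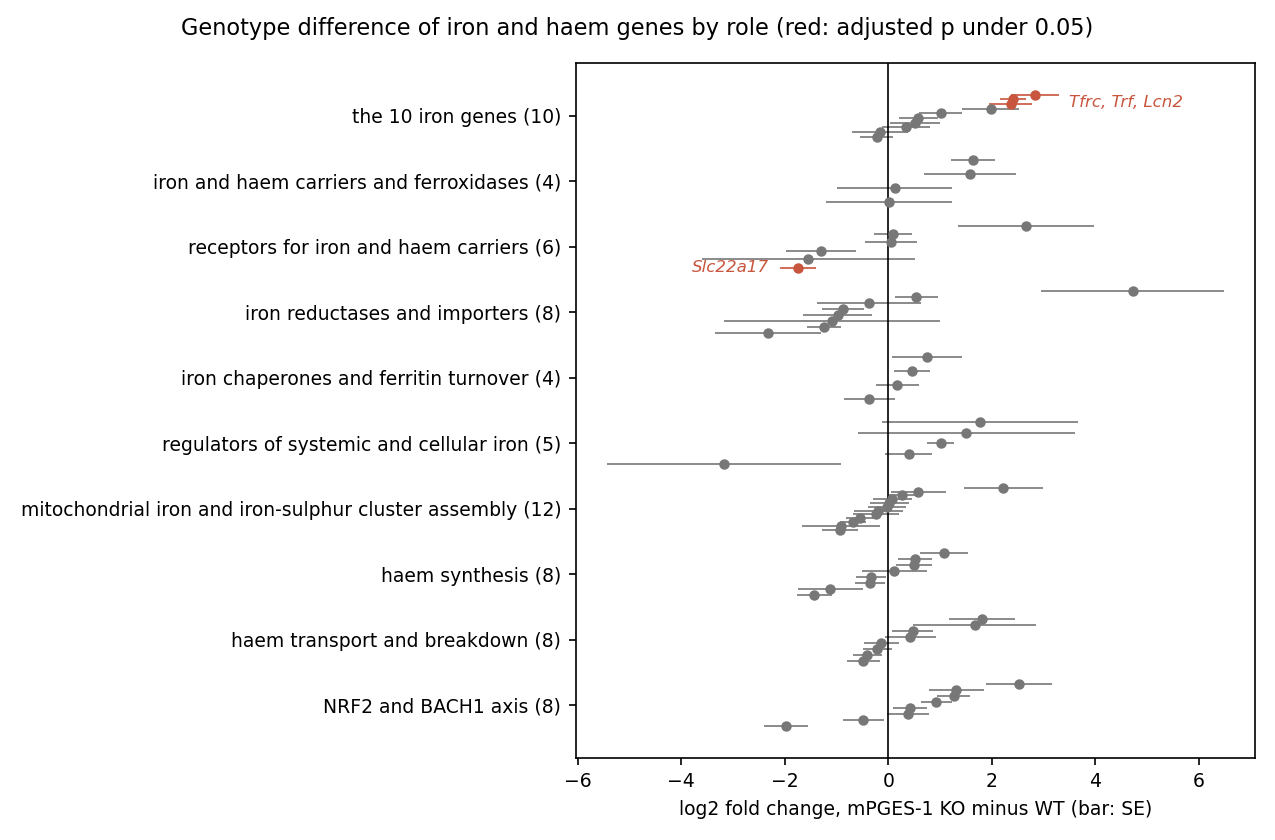
Log2 fold change (mPGES-1 KO minus WT, horizontal axis, bars SE) of the 10 iron genes and of 63 other iron and haem genes by role, with the number of tested genes in brackets; red points passed an adjusted p of 0.05. Tfrc, Trf and Lcn2 are the highest of the 10, and Slc22a17 is the 1 red point of the other lists.

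None of the other role groups had a gene that passed in edgeR. Of 5 carriers and ferroxidases with counts, 4 passed the filter on low counts and had a positive log2 fold change. Those of Heph and Hp were far smaller than their SE (0.015 ± 1.22 and 0.12 ± 1.11). The fifth, the haem carrier gene Hpx, was left out by that filter, with 4, 57 and 63 reads in WT replicates 1 to 3 against 0, 1 and 1 in mPGES-1 KO. Cp, the plasma ferroxidase ceruloplasmin, was at 367 ± 178 CPM in WT and 1143 ± 305 CPM in mPGES-1 KO, a log2 difference of 1.64 ± 0.43 (SE; adjusted p = 0.0898 in edgeR). Ltf, the milk and neutrophil protein lactoferrin, was uneven, at 174 to 1617 CPM in WT and 938 to 4305 CPM in mPGES-1 KO. Of the other receptors, Lrp1, which clears haem complexes, had a log2 fold change of -1.31 ± 0.68 (SE), which was -2.14 without mPGES-1 KO replicate 1 and -0.56 without WT replicate 3. That of Scara5, a ferritin receptor, was 0.05 ± 0.50, and 0.74 without WT replicate 3. Of 8 reductases and importers, 6 had a negative log2 fold change. The ferrireductase Steap4 had one of -1.24 ± 0.33 (adjusted p = 0.0954 in edgeR) and the importer Slc39a14 one of 0.54 ± 0.41.

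The remaining groups held iron use and its control. The iron chaperones Pcbp1 and Pcbp2 had log2 fold changes of -0.36 ± 0.50 and 0.46 ± 0.34 (SE). Fbxl5, the iron-sensing ubiquitin ligase subunit that marks Ireb2 protein for decay, was at 69.6 ± 11.4 CPM in WT and 140.4 ± 17.5 CPM in mPGES-1 KO, without overlap (a log2 difference of 1.01 ± 0.26, adjusted p = 0.0821 in edgeR). Neo1, a receptor of the hepcidin pathway, had a log2 fold change of 0.39 ± 0.46. Of 12 mitochondrial iron genes, 5 were positive and 7 negative, with Glrx5, which passes on iron-sulphur clusters, at -0.54 ± 0.29. Among haem synthesis genes 4 were positive and 4 negative, with Alas1, the first enzyme of the pathway, at 1.08 ± 0.47 (0.37 without mPGES-1 KO replicate 3) and Urod at -0.35 ± 0.29. Haem transport and breakdown was also split 4 to 4, with Slc48a1 at -0.41 ± 0.28 and Blvrb at -0.48 ± 0.32.

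Hmox1 is a classical target of the stress factor NRF2 (Nfe2l2), which the haem sensor BACH1 opposes. Of 8 genes of that axis 6 had a positive and 2 a negative log2 fold change. Nfe2l2 was at 141 ± 44.2 CPM in WT and 269 ± 39.0 CPM in mPGES-1 KO (a log2 difference of 0.93 ± 0.29, adjusted p = 0.135 in edgeR), and its target Txnrd1 at 67.2 ± 1.17 and 161 ± 65.9 CPM (1.26 ± 0.32, adjusted p = 0.0867). Keap1, which holds NRF2 inactive and was named after its values were seen, stood at 67.8 ± 11.1 CPM in WT and 17.2 ± 8.06 CPM in mPGES-1 KO (adjusted p = 0.0565 in edgeR). Of Hmox1 and these 8 genes, 5 had their highest level in mPGES-1 KO replicate 2: Hmox1 and the NRF2 targets Srxn1, Txnrd1, Nqo1 and Gclm. Srxn1, also named after its values were seen, stood at 236 CPM there, against 52.2 and 66.7 CPM in mPGES-1 KO replicates 1 and 3 and 13.7 to 29.1 CPM in WT. Nfe2l2 itself and Bach1 were highest in mPGES-1 KO replicate 3, Keap1 in WT replicate 1 and Gclc in WT replicate 2. Gclc, of the same list, had a log2 fold change of -0.48 ± 0.39 (SE). The share of all genes highest in mPGES-1 KO replicate 2 was not computed, and the part of NRF2 in the Hmox1 values was not tested.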

How the data were processed

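RNA-seq was run on 6 libraries of sorted fibroblasts. Per the labels' protocols, cDNA from an ultra-low input kit was amplified by 16 PCR cycles and sheared, and single reads ran to 75 cycles; strand and molecules were not marked, so PCR copies cannot be told from separate molecules. The authors deposited unnormalized counts, whole numbers of reads for each gene symbol. FastQC 0.11.5, STAR and mm10 appear in the submitters' processing notes. What counting program and annotation were used, and how reads with several matches were treated, is not given in the sources used here.

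Counts were fitted over all 6 libraries with edgeR 4.0.16 in R 4.3.3 (filterByExpr, TMM, robust quasi-likelihood, two-sided, Benjamini-Hochberg over 16543 genes, threshold 0.05), and the procedure was tested on simulated data. The standard error is the absolute log2 fold change over the square root of F. CPM uses TMM-scaled totals, and RPKM divides it by the main transcript (CCDS, then APPRIS principal, then support level, then length) of GENCODE M21 (GRCm38, the same assembly as mm10). The common biological coefficient of variation was 0.818. Alternatives were DESeq2 1.42.0, limma 3.58.1, other scalings and filters, a replicate block, and each library left out. The 10 genes, the role and marker lists and the tests were chosen with earlier results of these data known. Named outside the 10 were listed genes that passed, up to 2 further genes of highest mean CPM per role group, and the 5 genes most like Lcn2 and Trf; 1 gene that the rule named is not reported here. The luminal sum without Csn3, the likeness under other scalings and the use of all exonic bases as length were added after the data were seen.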

Additional observations from a re-analysis of the deposited data

How the results depend on the processing

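The fits over all genes were sensitive to single libraries. Against 456 genes called with edgeR, DESeq2 called 2208, limma-voom 1965 and an adjusted p under 0.1 gave 1113, while leaving out 1 library gave 0 to 568. Of the 10 iron genes, 0 to 3 were called when 1 library was left out, and of the other iron and haem genes 0 to 2. For those other genes, where 1 was called, the count was 0 with DESeq2 size factors, 0 with no filter, 2 with a filter of 1 CPM in 3 libraries, 12 with DESeq2, 10 with limma-voom and 8 at an adjusted p under 0.1. With the replicate number as a replicate block, edgeR called 0 genes in all, 0 of the 10 and 0 of the others, with 2716, 4 and 16 at an unadjusted p under 0.05. The numbers were not taken to pair the libraries: deviations from the group means correlated by -0.06, 0.03 and -0.02 between same-numbered libraries, and 1 of 3 WT libraries correlated best with its own number. Trf, Tfrc and Lcn2 kept a positive log2 fold change in all 13 alternative fits (2.31 to 2.55, 2.60 to 3.30 and 2.18 to 2.83). Among uncalled genes the sign turned when libraries were left out: Fth1 ran from -0.16 to 0.87, Slc40a1 from -0.69 to 0.48 (0.17 with limma-voom), Scara5 from -0.23 to 0.74, Slc39a14 from -0.027 to 0.81 and Neo1 from -0.038 to 0.81. With all exonic bases as length, the mean Fth1 to Ftl1 ratio was 1.59 in WT and 2.50 in mPGES-1 KO, since the annotated retained introns of Fth1 lengthen it. The cause of the other changes was not tested, beyond the fewer samples of the fits that leave out a library. With the block, Slc22a17 had an adjusted p of 0.133 in edgeR. Depth bears most on Tfrc, whose lowest library held 203 reads.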
